A study of Oreochromis niloticus with 5 samples.

Results

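The genes described here regenerate and spend ATP in the fast muscle of Nile tilapia. They are the muscle creatine kinases ckmb (transcript rna41226) and ckma (rna26546), the nucleoside diphosphate kinase LOC100697135 (rna8448), and the sarcoplasmic reticulum calcium pump atp2a1l, listed as the isoforms rna22679 and rna22680. The members were taken by their transcript identifiers, which gave 5 transcripts of 4 genes among 80416 listed features. All 5 stand in the paper's list of the most expressed transcripts, drawn from these same libraries. Their high level was thus known beforehand, and the ranks and family shares below describe it without adding separate support. White muscle of 5 full-sib males reared together was sequenced after ribosomal RNA depletion, as 1 library per fish, M1 to M5. All were males of 1 family with no treatment named, and their labelled age is 5 months. Their published body weights differed, with M3 the heaviest and M2 the lightest, and any part of weight in the values was not tested. A longer rearing time stands in the published methods. With a single condition, genes were compared within fish, and each value rests on 1 library.

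Creatine kinase moves phosphate between phosphocreatine and ADP, which keeps ATP available during bursts of contraction. Nucleoside diphosphate kinase moves the terminal phosphate of ATP to other nucleoside diphosphates such as GDP. The calcium pump returns calcium from the cytosol to the sarcoplasmic reticulum at the cost of ATP, which lets the fibre relax. Fast muscle runs mainly on phosphocreatine and glycolysis, and Nile tilapia carries a pair of muscle creatine kinase genes.

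Total counts ranged from 26750559 in M1 to 90337019 in M2, and the lowest count of any of the 4 genes in any library was 200873 (LOC100697135 in M1). Ribosomal RNA genes took 0.201% of the counts in M1 and at most 0.0164% in the other fish. In the published supplement M1 also had the lowest alignment rate and the lowest share of assigned fragments, well below every other library. Of the 5 matched fast muscle markers, mylpfa and acta1b, a myosin light chain and skeletal actin, had 413861 to 614394 and 471945 to 826309 normalized counts per kilobase. The alpha-actinin actn3b had 29117 to 42408. Their paralogs mylpfb and acta1a were low, at 31.9 to 1132, highest in M1, and 6.98 to 67.2. The other fast markers sought, tnnt3, tnni2 and tnnc2, matched no gene symbol. The 9 matched markers of slow or cardiac muscle summed to 353 to 2544 per kilobase, with tnni1b at 0 in every fish, and the highest sum, in M1, was carried by myoglobin (mb, 2500 per kilobase). The 3 matched red blood cell markers summed to 48.1 to 101 per kilobase. In bulk tissue, fewer cells of a type and less RNA per cell cannot be told apart.

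The members lie on 4 linkage groups of the assembly O_niloticus_UMD_NMBU. The ckmb transcript has 9 exons and 1711 bases on the minus strand of linkage group 14 (34741311 to 34746431). The ckma transcript has 8 exons and 1615 bases on the plus strand of linkage group 10 (3584011 to 3587510). Counted in the direction of transcription, exons 4 to 8 of ckmb and exons 3 to 7 of ckma have the same lengths, at 155, 133, 172, 124 and 190 bases. The nucleoside diphosphate kinase transcript is the shortest, with 5 exons and 686 bases on the minus strand of linkage group 4 (34509171 to 34515167). The calcium pump transcripts lie on the plus strand of linkage group 8 (16435173 to 16447335) and measure 3850 bases for rna22679 and 3804 bases for rna22680. No feature of another gene overlapped any of the 4 loci on either strand, so no fragment at these places was shared with a neighbouring or antisense gene. The sequence identity of ckma and ckmb was not measured, and a fragment that aligns to both copies would be counted at its primary alignment only.

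Levels are normalized counts per kilobase, the count over the size factor of its library (from medians of ratios) and over the transcript length. LOC100697135 had 576562 in M3, 482087 in M1, 404090 in M2, 401736 in M4 and 337919 in M5, a mean of 440479 ± 91643 (SD, n = 5 fish). Among the genes, each represented by its most expressed transcript, it ranked 3 by this mean, a high place known beforehand from the published list. Fish M3 was the highest and M5 the lowest, 1.71-fold apart, which is the widest range of the 4 genes.

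The creatine kinase ckmb had 414406 in M5, 385639 in M2, 365775 in M1, 339945 in M4 and 292351 in M3, a mean of 359623 ± 46445 (SD, n = 5 fish). Here M5 was the highest and M3 the lowest, the reverse of the nucleoside diphosphate kinase. Its paralog ckma had 362597 in M5, 314846 in M2, 268857 in M1, 265482 in M4 and 247011 in M3, a mean of 291759 ± 46820 (SD, n = 5). The ckma values had their extremes in the same fish as those of ckmb. Per kilobase, ckmb ranked 4 and ckma ranked 6 among all genes.

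The calcium pump atp2a1l, by rna22679, had 186320 in M5, 162260 in M2, 146512 in M3, 145962 in M1 and 133239 in M4, a mean of 154859 ± 20377 (SD, n = 5 fish). It too was highest in M5, with its lowest value in M4 and a rank of 10. Together the 4 genes, 1 transcript each, took 4.42% to 5.83% of all counts of a library, most in M5. The total holds a fragment once for every transcript it was counted for. These are therefore not shares of fragments, which would be larger.

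**Figure D1:**
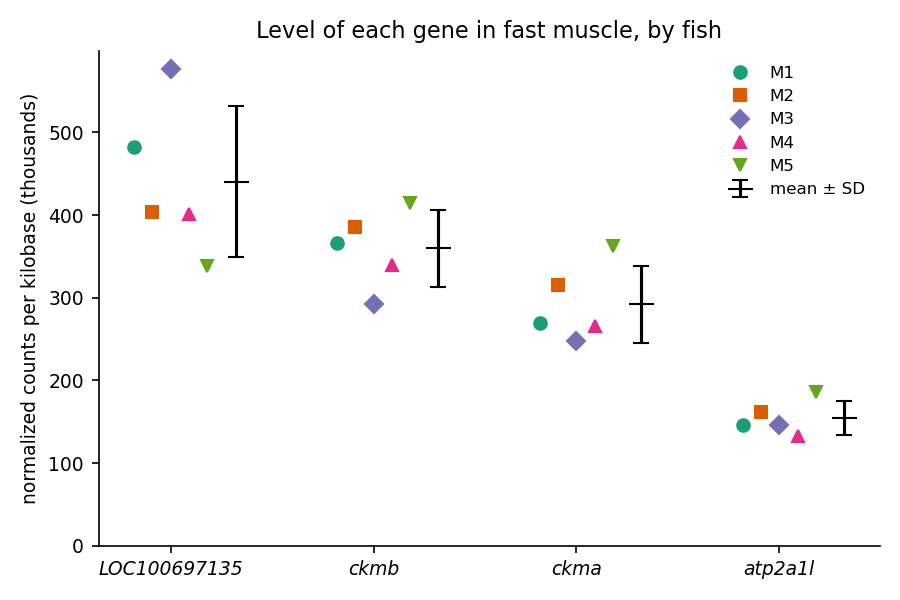
Normalized counts per kilobase (axis in units of 1000) of the 4 genes in each of the 5 fish, with the mean and SD beside the points. LOC100697135 was highest in M3 and lowest in M5, while ckmb, ckma and atp2a1l were all highest in M5.

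The order LOC100697135, ckmb, ckma and atp2a1l held in 4 of 5 fish, all but M5, where both creatine kinases exceeded the nucleoside diphosphate kinase. Within fish, the ratio of LOC100697135 to ckmb was 1.97 in M3, 1.32 in M1, 1.18 in M4, 1.05 in M2 and 0.815 in M5. The mean log2 ratio was 0.28 ± 0.47 (SD, n = 5), above 0 in 4 of 5 fish and smaller than its SD. An exact two-sided test over all sign flips of the 5 log2 ratios gave p = 0.25, also 0.25 after Benjamini-Hochberg adjustment over the 6 pairs. Against ckma, the ratio of LOC100697135 ran between 0.932 in M5 and 2.33 in M3, with a mean log2 ratio of 0.58 ± 0.50 (exact sign-flip test, p = 0.125, adjusted 0.15). Against atp2a1l, the ratio of LOC100697135 ran between 1.81 and 3.94 and was above 1 in 5 of 5 fish (mean log2 ratio 1.49 ± 0.43, SD, n = 5). That comparison reached p = 0.0625 in the exact sign-flip test, the smallest two-sided value that 5 fish allow, so no pair here could pass 0.05 (adjusted 0.0938). This order is one of levels per length. Without division by length LOC100697135 was below the other genes in 5 of 5 fish, with mean log2 ratios of -1.04 to ckmb, -0.65 to ckma and -0.995 to atp2a1l. With 300 bases taken off each length, for the starts a fragment cannot use, the order held in 5 of 5 fish, with mean log2 ratios of 0.83 to ckmb, 1.12 to ckma and 2.21 to atp2a1l.

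The creatine kinase paralogs were set against each other fish by fish. The ratio of ckmb to ckma per kilobase was 1.36 in M1, 1.28 in M4, 1.22 in M2, 1.18 in M3 and 1.14 in M5. The ckmb level was thus the higher in 5 of 5 fish, with a mean log2 ratio of 0.31 ± 0.098 (SD, n = 5). The exact sign-flip test gave p = 0.0625, its smallest possible value, and 0.0938 after Benjamini-Hochberg adjustment over the 6 pairs. The highest and lowest ratio were 1.19-fold apart, less than the 1.42-fold range of ckmb or the 1.47-fold range of ckma alone.

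As a share of the counts on both genes, ckmb held 59.0% in M1 (95% Wilson interval 58.9% to 59.2%), 57.6% in M4 (57.5% to 57.7%), 56.5% in M2 (56.4% to 56.5%), 55.6% in M3 (55.5% to 55.7%) and 54.8% in M5 (54.7% to 54.9%). No interval overlapped its neighbour, so the fish differed in this share by more than counting error, which is all that such intervals cover. The mean over fish was 56.7% ± 1.67 (SD, n = 5). The ratio was lowest in M5, where both paralogs were at their highest, and highest in M1. That library also had the largest sum of slow or cardiac muscle markers and of ribosomal RNA. It had the lowest published alignment rate and share of assigned fragments as well. The part of these in the ratio was not tested. Without M1 the mean log2 ratio was 0.27, the lowest value obtained with any fish left out.

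Both creatine kinases stood above the calcium pump in every fish. The ratio of ckmb to atp2a1l ran between 2.00 in M3 and 2.55 in M4, with a mean log2 ratio of 1.22 ± 0.14 (SD, n = 5). The ratio of ckma to atp2a1l was 1.99 in M4, 1.95 in M5, 1.94 in M2, 1.84 in M1 and 1.69 in M3, a mean log2 ratio of 0.91 ± 0.096 (SD, n = 5). For each of these pairs the exact sign-flip test again gave its smallest value, p = 0.0625 (adjusted 0.0938). Both ratios turn on length. Without division by length ckmb was above the pump in 3 of 5 fish, at a mean log2 ratio of 0.05 (exact sign-flip test, p = 0.5625), and ckma lay below the pump in 5 of 5 fish, at -0.34.

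**Figure D2:**
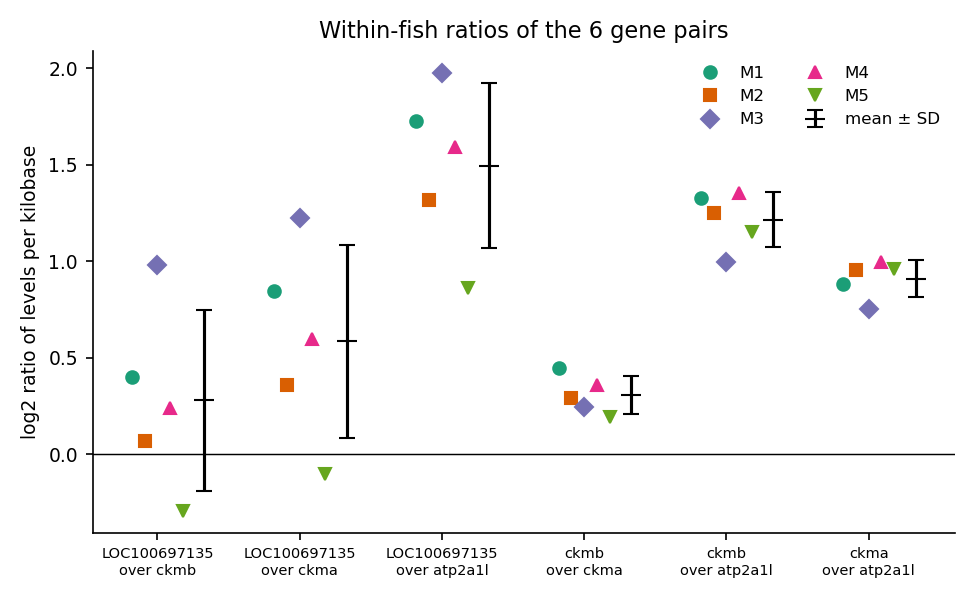
Log2 ratios per kilobase within each fish for the 6 pairs, with mean and SD beside the points. The 3 pairs with LOC100697135 spread widely between M3 and M5, with SDs of 0.43 to 0.50, and the 3 pairs without it have SDs of 0.096 to 0.14.

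The deviations of each gene from its own mean show how the 4 genes moved over the fish. In M5, ckma was 0.33, atp2a1l 0.28 and ckmb 0.21 above its mean on the log2 scale, while LOC100697135 lay 0.36 below (-0.36). In M3 the signs were the opposite, with LOC100697135 at 0.41, ckmb at -0.29, ckma at -0.23 and atp2a1l at -0.07. M2 had the pattern of M5 in smaller size, with ckma at 0.12, ckmb at 0.11, atp2a1l at 0.08 and LOC100697135 at -0.10. In M1 LOC100697135 stood at 0.15 and ckmb at 0.03, with atp2a1l at -0.08 and ckma at -0.10. In M4 all 4 genes lay below their means, between -0.07 and -0.21. With TMM factors, library totals or TPM in place of the size factors, M3 stayed the highest and M5 the lowest fish of LOC100697135, and M5 stayed the highest fish of the other 3 genes. The lowest fish of ckma was M1 with library totals or TPM. In M3 atp2a1l lay above its mean with TPM, at 0.04, and in M1 ckmb lay below its mean with library totals (-0.08) or TPM (-0.07).

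**Figure D3:**
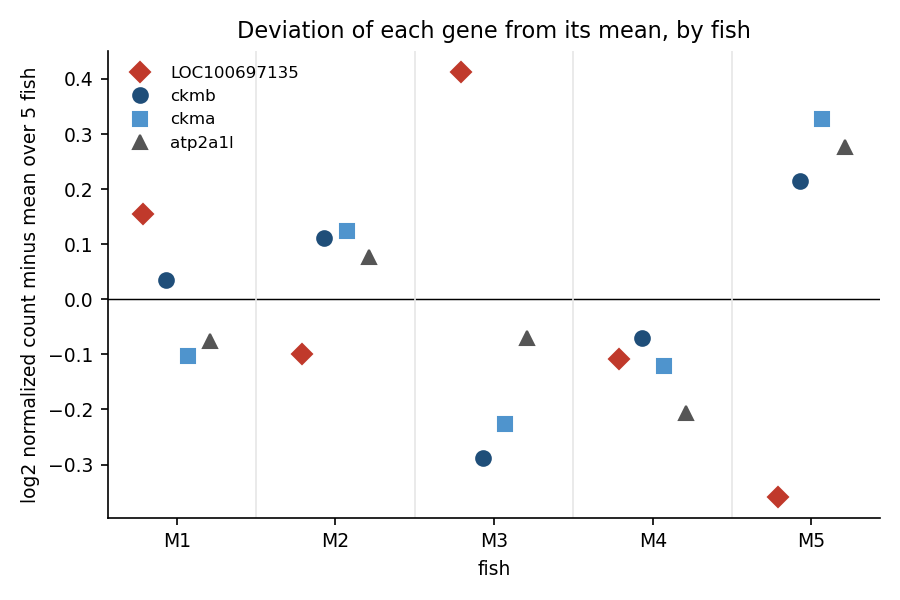
Log2 normalized count of each gene minus its mean over the 5 fish, by fish. In M3, M5 and M2 LOC100697135 lies on the other side of 0 from ckmb, ckma and atp2a1l (with TPM not from atp2a1l in M3), and in M4 all 4 lie below 0.

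With 5 fish no correlation across fish was computed, and joint movement is described by the SD over fish of the within-fish log2 ratio. This SD is small when a pair rises and falls together. It is also small when both genes vary little between fish, so it does not separate joint movement from the spread of each gene alone, given below. It was compared with the ratios to the other 1456 genes whose normalized counts averaged at least 1000. The SD was 0.098 for ckmb with ckma, and only 3.02% of those genes lay nearer to ckmb than ckma did. For ckma with atp2a1l it was 0.096, with 2.06% of genes nearer to ckma. For ckmb with atp2a1l it was 0.14, with 11.9% of genes nearer to ckmb. These members thus ranked high among the nearest, but 44 other genes lay nearer to ckmb than its paralog and 30 lay nearer to ckma than the pump. These shares moved with single fish. For ckma as the partner of ckmb the share was 9.89% without M3, 8.04% without M2, 4.81% without M5, 4.67% without M4 and 2.13% without M1. For the pump as the partner of ckma it was 7.69% without M5, 5.70% without M1, 5.08% without M2 and 0.687% without M3, and as the partner of ckmb it was 19.8% without M5, 18.9% without M2 and 6.59% without M3.

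The nucleoside diphosphate kinase did not share this pattern. Its ratio SDs were 0.47 to ckmb, 0.50 to ckma and 0.43 to atp2a1l, and 56.5%, 62.7% and 46.8% of genes lay nearer to LOC100697135 than these. Counted from the other side, 75.5% of genes lay nearer to ckmb than LOC100697135 did, 78.6% nearer to ckma and 73.3% nearer to atp2a1l. The median gene had an SD of 0.44 to LOC100697135, 0.32 to ckmb, 0.32 to ckma and 0.30 to atp2a1l. Without M5 the SD of its ratio to atp2a1l was 0.27 and the share nearer was 24.8%, and without M3 the SD of its ratio to ckmb was 0.30 and the share 33.6%.

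Taken alone, ckmb, ckma and atp2a1l varied less between fish than most genes did, and LOC100697135 about as much as the middle gene. On the scale log2(normalized count + 1), the SD over the 5 fish was 0.19 for ckmb, 0.22 for ckma, 0.18 for atp2a1l and 0.29 for LOC100697135, against a median of 0.28 over the 1457 genes tested. A smaller SD was found in 24.8%, 33.4%, 22.6% and 53.2% of the genes for ckmb, ckma, atp2a1l and LOC100697135. By Dixon's ratio, which marks a fish far from the other 4, 0 of the 4 genes were past the critical value of 0.71, against 7.21% of all genes tested.

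The genes with the smallest ratio SD to each member were named by a fixed rule. Nearest to ckmb were rnf123, eif2s3, LOC100690582, rps27.1 and eif4a3, with SDs of 0.043 to 0.052. Of these, eif2s3 is a subunit of a translation initiation factor, rps27.1 a ribosomal protein, and eif4a3 an RNA helicase of the exon junction complex. Nearest to ckma were sec23a, a coat protein of vesicles leaving the endoplasmic reticulum, naa10, an N-terminal acetyltransferase, pdlim7, a PDZ and LIM domain protein, pebp4 and eif6, with SDs of 0.034 to 0.059. Nearest to atp2a1l were nap1l4a, eif1axb, ube2v2, LOC100706087 and hint1, with SDs of 0.057 to 0.072. The order within such a list rests on 5 fish and on differences in SD of a few hundredths.

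Nearest to LOC100697135 were agla, LOC100690608, lpin1b, dst and ldha, with SDs of 0.068 to 0.11. The debranching enzyme agla, which with phosphorylase breaks down glycogen, had 1329 in M3, 1230 in M1, 1024 in M4, 1018 in M2 and 877 in M5 per kilobase. Lactate dehydrogenase ldha, which closes anaerobic glycolysis, had 15188, 11571, 18169, 13097 and 9221 per kilobase in M1 to M5. Both were highest in M3 and lowest in M5, as LOC100697135 was, and the ratio of LOC100697135 to ldha stayed between 30.7 and 36.6.

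The enzymes of glycogen breakdown and glycolysis were then followed as a list. Of its 16 matched genes, 12 averaged at least 1000 normalized counts. In nearness, 8 of these 12 lay closer in pattern to LOC100697135 than to any of ckmb, ckma and atp2a1l, against 24.8% of the other genes tested. The 8 were pygma, gpib, pfkmb, gapdh, pgam2, eno3, pkmb and ldha, and the others were pgm1, pfkma, aldoab and pgk1. Closer here is relative to the other members only. The ratio SD to LOC100697135 was 0.11 for ldha and 0.12 for pygma, but 0.31 for gapdh and 0.49 for eno3, the last above the median of all other genes tested. The median ratio SD of the list was 0.26 to LOC100697135, 0.48 to ckmb, 0.53 to ckma and 0.48 to atp2a1l, while all other genes tested had medians of 0.44, 0.32, 0.32 and 0.30. With each fish left out in turn, the count ranged from 7 to 11. It was 11 without M3, where the share of the other genes tested was 31.5%. Without any other fish it was 7 or 8, against shares of 23.0% to 25.2%.

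The most abundant enzymes of this list per kilobase were gapdh, aldoab, eno3, pygma and pkmb. Glyceraldehyde-3-phosphate dehydrogenase gapdh had 187338 in M2, 180441 in M1, 169144 in M4, 152537 in M3 and 118006 in M5. The muscle enolase eno3 had 66795, 47259, 44470, 60083 and 23725 in M1 to M5. The phosphorylase pygma, which releases glucose-1-phosphate from glycogen, had 28655, 22566, 30852, 26731 and 18691. All 3 were lowest in M5, whereas aldolase aldoab was nearly level, between 110966 in M5 and 130539 in M4. The pyruvate kinase pkmb ran between 18476 in M2 and 24318 in M3.

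In all, 9 of the 12 enzymes had their lowest value in M5, against 20.3% of the other genes tested. M5 was singled out here after its values were seen. The ratio of ckmb to gapdh was 3.51 in M5 and 1.92 to 2.06 in the other fish, while that of LOC100697135 to gapdh was 2.86 in M5 and 2.16 to 3.78 in the others. With library totals in place of size factors 7 enzymes were lowest in M5, against 16.4% of the other genes tested. With TMM factors or TPM it was 9, against 21.0% and 19.1%.

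**Figure D4:**
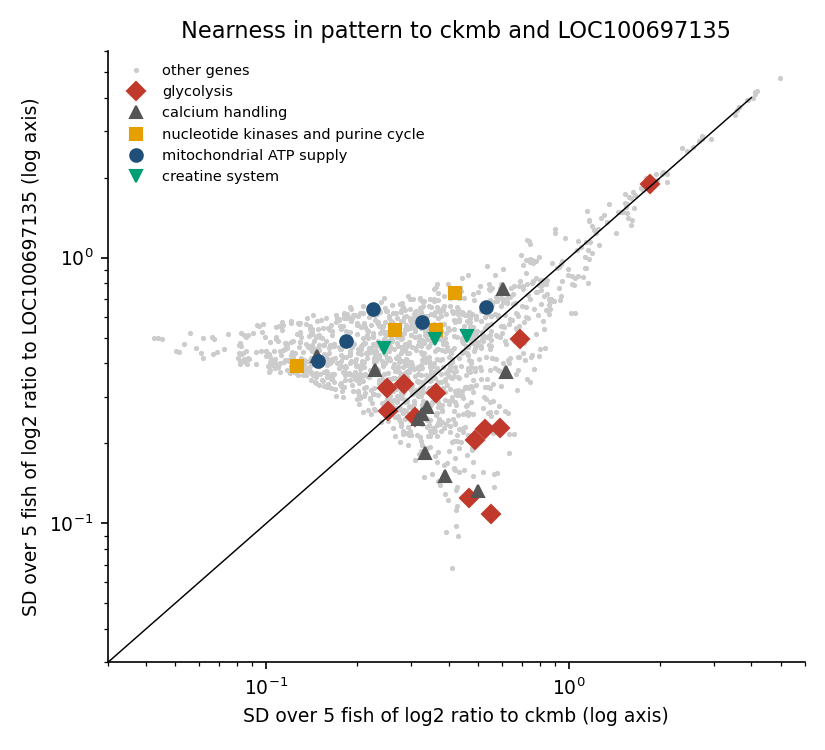
For each gene that averaged at least 1000 normalized counts, the SD over 5 fish of its log2 ratio to ckmb (horizontal, log axis) and to LOC100697135 (vertical, log axis). Genes below the line are nearer to LOC100697135, and the glycolysis genes there include ldha, with SDs of 0.11 to LOC100697135 and 0.55 to ckmb.

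The mitochondrial list went the other way. Its 11 symbols matched 7 genes, of which 5 averaged at least 1000 normalized counts and were tested. These were the ADP/ATP carrier slc25a4, the outer membrane channels vdac2 and vdac3, citrate synthase cs and the cytochrome c oxidase subunit cox4i1. All 5 had their highest value in M5, against 34.3% of the other genes tested, with M5 again singled out after its values were seen. Of the matched genes below that minimum, an outer membrane channel was highest in M5 and another ADP/ATP carrier was highest in M2. Per kilobase slc25a4 had 48406 in M5, 43307 in M4, 31478 in M1, 31345 in M3 and 28372 in M2. Citrate synthase had 1444, 1347, 1311, 1513 and 1659. Of the 5, 0 lay closer to LOC100697135 than to the other members (1 without M5), against 24.8% of the other genes tested. With 5 genes, this count says little. The median ratio SD of the list was 0.23 to ckmb and 0.57 to LOC100697135. With any of M1 to M4 left out the count highest in M5 was still 5, and it was 5 under each other scaling. The share of the other genes tested that were highest in M5 moved as well. It was 38.4% to 40.9% with a fish left out, 46.5% with library totals, 38.4% with TPM and 32.8% with TMM factors.

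Within the creatine system, the muscle paralogs dominated. Together ckmb and ckma held 98.4% to 99.2% of the summed level per kilobase of the 4 matched creatine kinase genes. The sarcomeric mitochondrial creatine kinase ckmt2a, which charges creatine at the mitochondrion, had 9910 in M4, 8346 in M5, 7338 in M1, 6722 in M3 and 5641 in M2. The sum of ckmb and ckma was 61.1-fold (M4) to 124-fold (M2) above it. The brain-type creatine kinase ckba had only 14.2 to 30.5 per kilobase.

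For the supply of creatine, guanidinoacetate methyltransferase gamt, the last enzyme of creatine synthesis, had 6005 to 9757 per kilobase, highest in M2. The first enzyme of that synthesis, gatm, had 311 in M1, 181 in M4, 61.7 in M3, 23.2 in M2 and 18.9 in M5, a far wider spread than that of any creatine kinase. The creatine transporter slc6a8 had 862 to 1647, lowest in M1 and highest in M3. The ratio SD to ckmb was 0.24 for gamt, which like ckmb was lowest in M3, 0.36 for ckmt2a and 0.46 for slc6a8, against 0.32 for the median gene.

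Among the nucleotide kinases, LOC100697135 held at least 99.9% of the summed level of the 5 matched nucleoside diphosphate kinase genes in every fish. The next, nme3, had 89.3 to 130 per kilobase, nme7 had 27.7 to 50.2 and nme6 had 19.3 to 43.0. The mitochondrial form nme4 had 0 counts in all 5 fish, and the limit that goes with 0 is 3 counts per library. Genes that carry only a LOC name could not be assigned to a family, so these shares cover the genes with a family symbol and LOC100697135.

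The adenylate kinase ak1, which makes ATP and AMP from ADP, was the most abundant of the other nucleotide enzymes. It had 57033 in M5, 55985 in M2, 48796 in M4, 48555 in M3 and 48085 in M1 per kilobase. It was highest in M5 and M2, as ckmb, ckma and atp2a1l were. Its ratio SDs were 0.095 to atp2a1l, 0.12 to ckma, 0.13 to ckmb and 0.39 to LOC100697135. The ratio of ckmb to ak1 stayed between 6.02 and 7.61, and that of LOC100697135 to ak1 ran between 5.92 and 11.9.

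The enzymes of the purine nucleotide cycle were ampd1, the muscle AMP deaminase, with 17223 (M4) to 31786 (M2), adss1, the adenylosuccinate synthetase, with 5461 (M1) to 9936 (M5), and ampd3b, with 1073 (M4) to 2523 (M5). Of the 4 tested genes of this list, 0 lay closer to LOC100697135, against 24.8% of the other genes tested, and 3 were highest in M5, against 34.3%. With 4 genes, these counts say little.

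The calcium pump was likewise almost the whole of its family. The transcript rna22679 of atp2a1l held at least 99.9% of the summed level of the 5 matched pump genes in every fish. The slow-muscle and cardiac pump genes atp2a2a and atp2a2b had 20.3 to 47.5 and 9.97 to 19.9 per kilobase, both highest in M4. The second gene of the fast type, atp2a1, had 86.4 in M1, 15.3 in M4, 5.74 in M5, 3.43 in M3 and 3.40 in M2, and atp2a3 had at most 5.97. Low levels of genes so similar in kind to an abundant transcript are uncertain where fragments align to both.

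The pump isoforms differ by a single exon. Exon 23 of the 24 exons of rna22679, 46 bases long and so not a multiple of 3, lies at 16444867 to 16444912 on linkage group 8 and is skipped in rna22680, whose 23 exons are all shared. In mammals, splicing near this end of the fast pump gene separates adult and neonatal forms. The counts of rna22679 exceeded those of rna22680 by 145 in M2, 105 in M4, 93 in M5, 64 in M3 and 63 in M1, which is 0.0105% to 0.0247% of the count. A fragment that touches any shared exon was counted for both isoforms. This difference thus holds only fragments that touch exon 23 and no shared exon, and these may also cover intron. It does not measure how often the exon is used.

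Around the pump, sarcolipin sln, a small membrane protein that inhibits the pump, had 56916 in M4, 54868 in M5, 49992 in M1, 30733 in M3 and 21771 in M2. Its level did not follow that of atp2a1l, and the ratio of atp2a1l to sln ran between 2.34 in M4 and 7.45 in M2. Calsequestrin casq1a, the calcium buffer inside the reticulum, had 36396, 30267, 28161, 21299 and 14411 in M1 to M5. It was lowest in the fish in which the pump was highest, and the ratio of atp2a1l to casq1a was 12.9 in M5 and 4.01 to 6.26 in the others. The junctophilins jph2 and jph1a, which hold the reticulum close to the surface membrane, had 4363 to 6167 and 2510 to 3539 per kilobase.

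Sarcalumenin srl, another calcium-binding protein of the reticulum, moved with the pump at a ratio SD of 0.090. In the calcium list as a whole, 7 of the 10 tested genes other than the pump lay closer to LOC100697135 than to the pump or the creatine kinases, against 24.8% of the other genes tested. They were casq1a, the release channels ryr1b and ryr3, the voltage sensor cacna1sb with its partners cacnb1 and cacng1a, and jph1a. This count rested on M5, without which it was 1 of 10, against 23.0% of the other genes tested. Without M1 it was 5, against 25.2%, and without M3 it was 8, against 31.5%. The parvalbumin gene pvalb7, a cytosolic calcium buffer gene, was outside the list, whose symbols allow no number suffix, and its ratio SDs were 2.74 to ckmb and 2.87 to LOC100697135.

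**Figure D5:**
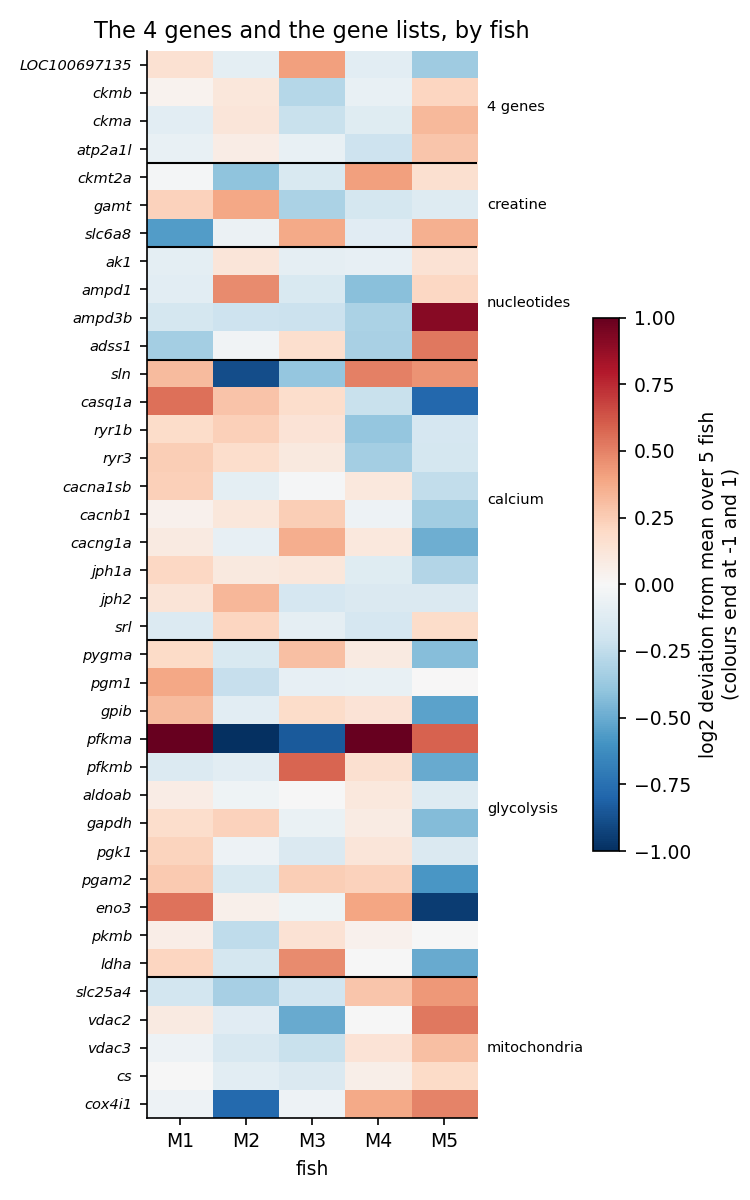
Log2 deviation from the mean over the 5 fish (colour, ending at -1 and 1) for the 4 genes and the tested genes of the 5 lists, by fish. In M5, 9 of 12 glycolysis genes are at their lowest and 5 of 5 mitochondrial genes at their highest.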

How the data were processed

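The authors trimmed the reads with BBDuk, aligned them with HISAT2 2.1.0 and counted fragments per transcript with featureCounts. The deposited values are raw counts, with 1 library per fish. By the paper's methods, primary alignments alone were counted, chimeric fragments were left out and duplicates were ignored. A fragment could count for several transcripts, and the strand setting of the counting is not given in the sources used here. The files pair no transcript with a gene name. Transcripts were placed on genes of the RefSeq table by coordinates, and 79924 of 80416 features matched.

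Counts were divided by DESeq2 1.42.0 size factors (R 4.3.3) and by transcript length. No group comparison or differential test exists with 1 condition. Pairs of genes were compared within fish by the exact sign-flip test, and 6 pairs were adjusted together. Ratio SDs used log2(normalized count + 1), 1 transcript per gene and a mean of at least 1000. Shares carry 95% Wilson intervals, which cover counting error only, since PCR reads are not independent molecules. Nothing says that library preparation was repeated, so the spread includes fish and technical error. Python 3.11.15 was used, with scipy 1.17.1, pandas 2.3.3, numpy 2.4.6 and, for plots, matplotlib 3.10.9. The calculations were tested on simulated data.

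Named genes are the members, the creatine list, the 5 most abundant genes of each other list, the paralogs of members and the 5 nearest genes of each member. A gene that this rule names is not reported here. Other calcium and glycolysis genes were named after their values were seen, as were the tissue markers printed. List genes were matched by symbol, with a paralog letter allowed. The members and lists were chosen with earlier results of these data known. Alternatives were edgeR 4.0.16 TMM factors, library totals, TPM, a pseudocount of 0.1, regularized log values, length handling, minima of 100 or none, every transcript, down-sampling to 26750559 counts and leaving out each fish. No value column was left out (0 not used). The other tissues and 5hmC libraries were not analysed here.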

Additional observations from a re-analysis of the deposited data

Results flagged for a closer look

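For 63 sets of 5 fish (57 named genes and 6 pair ratios) Dixon's ratio was computed, and 5 were past its critical value, a share close to the 7.21% of all genes tested that were, where chance gives about 1 in 20. The AMP deaminase ampd3b had 2523 normalized counts per kilobase in M5 and 1188 in the next fish. The second fast-type pump gene atp2a1 had 86.4 in M1 and 15.3 in the next fish. The pump gene atp2a2b had 19.9 in M4 and 11.6 in the next, and atp2a3 had 5.97 in M3 and 2.47 in the next. Myoglobin mb had 2500 in M1 and 937 in the next fish. None of the 4 member genes and none of their 6 ratios was among these.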

How the results depend on the processing

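No samples could be paired between groups, because a single group was sampled and replicate numbers name fish. The only pairing was of genes within a fish. Of the values under alternatives, 4 reversed and 52 moved by more than their error or by over 1.5 times. The other 136 kept their direction (ratios), moved less than that or, for some SDs, lay close to the limit of 1.5 times on either side of it. The side of 0.05 says nothing here, since no sign-flip test on 5 or fewer fish can pass it. Those 136 include shifts in size, as for the ratio of ckmb to atp2a1l, at 0.05 without division by length, the ratios of LOC100697135 with 300 bases taken off each length (0.83, 1.12 and 2.21), and the SDs of regularized log values, which were 0.13 for ckmb, 0.15 for ckma, 0.19 for LOC100697135 and 0.12 for atp2a1l. Without division by length, the mean log2 ratios of LOC100697135 reversed to -1.04 with ckmb, -0.65 with ckma and -0.995 with atp2a1l, that of ckma to atp2a1l reversed to -0.34, and 0 fish kept the main order, all through transcript length alone. With each fish left out, these ratios ranged from 0.10 to 0.42, 0.42 to 0.76, 1.37 to 1.65 and 0.89 to 0.95, that of ckmb to ckma from 0.27 to 0.33 and of ckmb to atp2a1l from 1.18 to 1.27, and 3 or 4 fish kept the order. The SD of log2 level then ranged from 0.12 to 0.22 for ckmb, 0.15 to 0.25 for ckma, 0.21 to 0.33 for LOC100697135 and 0.12 to 0.21 for atp2a1l.

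The share of genes nearer than a partner depends on the genes compared. With a minimum of 100, no minimum and every transcript, the share nearer to LOC100697135 was 61.9%, 45.2% and 67.7% for ckmb, 68.1%, 50.7% and 72.8% for ckma, and 51.8%, 36.9% and 59.1% for atp2a1l. Nearer to ckmb it was 1.6%, 0.814% and 2.18% for ckma, and 6.19%, 3.37% and 8.51% for atp2a1l. Nearer to ckma it was 1.35% and 0.697% for atp2a1l with the first pair of settings. With each fish left out, these shares ranged from 33.6% to 64.1%, 52.7% to 68.8%, 24.8% to 52.2%, 2.13% to 9.89%, 6.59% to 19.8% and 0.687% to 7.69%. With M1 to M4 left out in turn, the count of glycolysis genes lowest in M5 ranged from 9 to 10, against 22.2% to 24.8% of the other genes tested. That of mitochondrial genes highest in M5 was 5, against 38.4% to 40.9%. The counts nearer to LOC100697135, the other scalings and the M5 counts were chosen after seeing the data. Depth does not limit the 4 genes, and 5 fish limit every test.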
